A study of Canis lupus familiaris with 58 samples.

Results

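The chemokine and adhesion genes of lymph node stroma were followed in canine B-cell lymphoma through 6 genes: CCL19, CCL21, VCAM1, ICAM1, SERPINE2 and RARRES2. They were taken by symbol from the array annotation, and 12 probe sets carried one of the 6 symbols alone. For each gene the probe set with the highest mean level was used, so the 6 genes stood among 15115 genes read the same way, and the other probe sets served as a check. The samples were tumours of 58 client-owned pet dogs with B-cell lymphoma, 1 sample a dog, all taken before treatment and measured on Affymetrix canine expression arrays. There were 19 fine needle aspirates (cells drawn through a needle, pathology diagnosis unknown), 7 lymph node samples with marginal zone lymphoma (MZL) and 32 lymph node samples with diffuse large B-cell lymphoma (DLBCL). For the variable genes of the immunoglobulin heavy chain (IGHV) the labels gave a mutation status, which was static in 26 dogs, ongoing in 27 and ND, which the labels do not explain, in 5. Static status was recorded in 7 aspirates, 1 MZL and 18 DLBCL samples, and ongoing status in 11 aspirates, 4 MZL and 12 DLBCL samples. Progression-free survival (PFS) was known for 55 dogs with 47 events and overall survival (OS) for 56 dogs with 41 events, in a time unit the labels do not state.

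CCL19 and CCL21 are chemokines that fibroblastic reticular cells and vessels of the T-cell zone make in mouse and human lymph nodes, and both bind the receptor CCR7 on T cells, B cells and dendritic cells. VCAM1 and ICAM1 are adhesion molecules that hold leukocytes through integrins, VCAM1 on stromal and endothelial cells and ICAM1 on many cell types, B cells included. SERPINE2 is a secreted inhibitor of serine proteases such as thrombin and plasminogen activators, and RARRES2 encodes chemerin, a chemoattractant for macrophages and plasmacytoid dendritic cells through CMKLR1.

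Levels are log2 values, so a difference of 1 is a doubling, and levels of different genes are not set against each other because probe sets bind with different strength. Array medians lay between 7.08 and 7.20. The mean level of 6 measured B-cell markers ran over 8.77, 9.93 and 10.50 in aspirates (lowest, median, highest) and over 8.42, 9.39 and 10.55 in lymph node samples. The aspirates of dogs 12 and 42 had the lowest mean correlation with the other arrays, at 0.941 and 0.952 against a median of 0.972. Dog 12 also had the highest RNA 3′ minus 5′ difference of the aspirates, a log2 measure of RNA breakdown from control probe sets, at 2.03 against a median of 0.65. It ranked 2nd among aspirates for both chemokines and 1st for ICAM1. Across aspirates the RNA difference correlated with none of the 6 genes at an adjusted permutation p under 0.05. For ICAM1 Pearson's r was 0.13 and Spearman's rho -0.23, and for CCL21 they were 0.47 and 0.39. The part of RNA quality in the levels of dog 12 was not tested. Among DLBCL samples the highest RNA 3′ minus 5′ difference was larger still, at 3.64 against a median of 0.69.

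Aspirates were compared with lymph node samples, a contrast of the way the tumour was sampled as well as of the dogs sampled. CCL19 ran over 6.92, 7.82 and 11.98 in aspirates, against 6.78, 7.39 and 9.64 in lymph node samples. The aspirate of dog 33 stood far above all others, the next reaching 9.20, and 4 of 19 aspirates lay above every DLBCL sample. The groups overlapped over most of their range. The mean was 8.06 ± 1.16 in aspirates (SD, n = 19) and 7.49 ± 0.53 in lymph node samples (SD, n = 39), a difference of 0.58 ± 0.22 (SE), or 1.49-fold, with limma's adjusted p = 0.250. Without dog 33 the difference was 0.36.

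CCL21, the other CCR7 ligand, ran over 7.55, 8.20 and 10.90 in aspirates, against 7.28, 7.98 and 9.60 in lymph node samples. The highest DLBCL sample, at 8.85, was exceeded by 8 of 19 aspirates, and the 4 aspirates above that range in CCL19 were among them. The other aspirates lay inside the lymph node range. The difference was 0.65 ± 0.20, or 1.57-fold, with an unadjusted p of 0.00195 and an adjusted p of 0.143 in limma.

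Of the adhesion molecules, VCAM1 ran over 9.12, 11.17 and 13.16 in aspirates and 9.19, 10.82 and 12.75 in lymph node samples, and 1 aspirate, again of dog 33, lay above every DLBCL sample. Its difference was 0.45 ± 0.24 (limma, adjusted p = 0.476). ICAM1 ran over 7.56, 8.41 and 9.22 in aspirates and 7.35, 8.40 and 10.06 in lymph node samples, with no aspirate above the DLBCL range and the widest values on the lymph node side. Its difference was -0.06 ± 0.16 (limma, adjusted p = 0.926).

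SERPINE2 had the largest fitted difference of the 6 genes. It ran over 7.25, 8.43 and 10.31 in aspirates, against 6.24, 7.74 and 9.91 in lymph node samples, and 26 of 32 DLBCL samples lay below the aspirate median. Only a single aspirate, of dog 31, passed the highest DLBCL sample. The difference was 0.75 ± 0.23, or 1.68-fold (limma, unadjusted p = 0.00226 and adjusted p = 0.152). RARRES2 ran over 7.14, 10.93 and 12.52 in aspirates and 6.95, 10.07 and 12.48 in lymph node samples, an almost complete overlap, with a difference of 0.35 ± 0.42 (limma, adjusted p = 0.793).

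None of the 6 genes passed an adjusted p of 0.05 between specimens, where 18 of 15115 genes did (0.119%). At an unadjusted p under 0.05, 3 of 6 passed, CCL19, CCL21 and SERPINE2, against 11.8% of all genes. A rank-sum test called none of the 6 and 0 genes in all. The median difference of the 6 was 0.51 log2, against -0.01 over all genes. In bulk samples, fewer cells of a type and less RNA per cell cannot be told apart. Markers of several other cell types were also higher in aspirates. Of these, 1 gene passed the adjusted threshold, the erythroid ALAS2, at 8.39 in aspirates and 7.78 in lymph node samples (difference 0.61 ± 0.12, limma, adjusted p = 0.0133), and 2 of 3 erythroid markers were higher in aspirates. So were 6 of 6 B-cell markers, with 0 at an unadjusted p under 0.05. The same held for 8 of 8 smooth muscle markers, 4 of them at an unadjusted p under 0.05, for 11 of 12 endothelial markers with 6, for 9 of 12 fibroblast markers with 4 and for 11 of 11 T-cell markers with 7. Higher too were 5 of 7 granulocyte, 3 of 4 lymphatic endothelial, 4 of 5 adipocyte and 4 of 4 epithelial markers, with 2, 2, 1 and 0 at that level. Over all genes, 46.9% had the higher mean in aspirates. Not every list was higher. In aspirates 0 of 6 dendritic cell markers, 4 of 10 macrophage markers and 1 of 9 proliferation genes had the higher mean. In these lists 0, 0 and 1 passed at an unadjusted p under 0.05. The mean level of the smooth muscle markers ran over 6.83, 7.14 and 8.16 in aspirates and 6.65, 6.89 and 7.65 in lymph node samples. That of the fibroblast markers ran over 6.63, 7.20 and 8.09 in aspirates and 6.56, 7.02 and 8.46 in lymph node samples. Their part in the levels of the 6 genes was not tested.

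**Figure D1:**
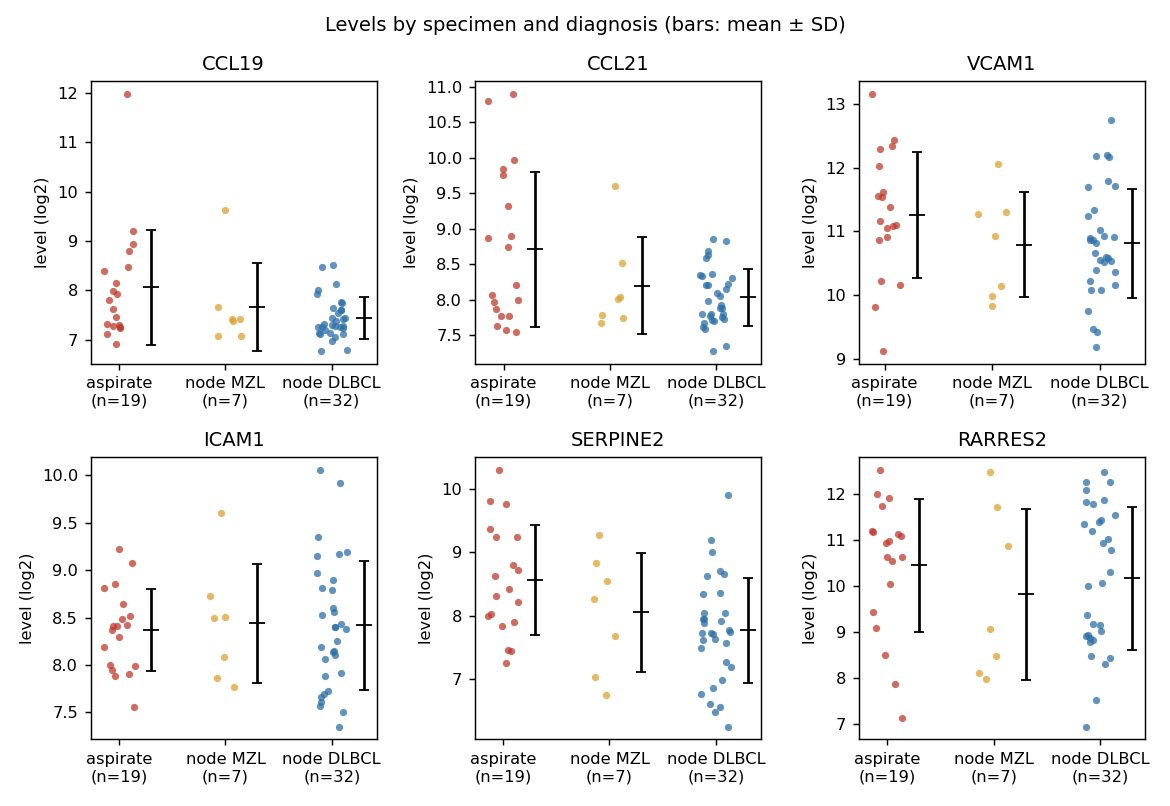
Level (log2) of each gene in every dog, by specimen and diagnosis; points are dogs and bars the mean ± SD of 19 aspirates, 7 lymph node MZL and 32 lymph node DLBCL samples. CCL19 and CCL21 spread upward in aspirates, to 11.98 and 10.90. RARRES2 spreads widely in all 3 groups, from 7.14 to 12.52 in aspirates, 7.97 to 12.48 in MZL and 6.95 to 12.46 in DLBCL samples.

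The chemokines also spread more widely in aspirates. The SD of CCL19 was 1.16 in aspirates and 0.42 in DLBCL samples, and that of CCL21 was 1.09 in aspirates and 0.41 in DLBCL samples. In aspirates 1.07% of genes had a larger SD than CCL19, and in DLBCL samples 20.9% did. Without dog 33 the SD of CCL19 in aspirates was 0.68, and 6.29% of genes had a larger one. The difference in spread was not tested. Chemerin varied widely in every group: the SD of RARRES2 was 1.44 in aspirates, 1.84 in MZL and 1.54 in DLBCL samples, where 0.29% of genes had a larger one.

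MZL was compared with DLBCL within lymph node samples. The 7 MZL levels of CCL19 were 7.08, 7.09, 7.39, 7.43, 7.43, 7.67 and 9.64, against 6.78, 7.31 and 8.51 in DLBCL samples (lowest, median, highest). Dog 43 carried the high end, and the other 6 lay inside the DLBCL range. The same dog was highest of the MZL samples in CCL21, VCAM1, ICAM1 and SERPINE2, at 9.60, 12.06, 9.61 and 9.28. The difference between MZL and DLBCL was 0.23 ± 0.21 for CCL19, 0.16 ± 0.19 for CCL21, -0.02 ± 0.34 for VCAM1 and 0.02 ± 0.27 for ICAM1. It was 0.29 ± 0.35 for SERPINE2 and -0.35 ± 0.65 for RARRES2, each with limma's adjusted p at 1.00. None of the 6 passed, nor did any gene measured (0%), and at an unadjusted p under 0.05 the counts were 0 of 6 against 1.16% of all genes. Without dog 43 the sign turned for CCL19, at -0.10, for CCL21, at -0.07, and for ICAM1, at -0.18.

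The IGHV comparison set the dogs given as static against those given as ongoing, with specimen and diagnosis as a stratum. CCL21 ran over 7.28, 7.87 and 9.84 in static samples and 7.61, 8.31 and 10.90 in ongoing samples. The highest dog was ongoing and the lowest static, and the ranges overlapped over most of their length. The stratified difference was -0.54 ± 0.20, or 0.689-fold, with limma's unadjusted p at 0.00923 and adjusted p at 0.670. CCL19 ran over 6.78, 7.30 and 8.51 in static samples and 6.98, 7.54 and 11.98 in ongoing samples, with a difference of -0.37 ± 0.23 (limma, adjusted p = 0.732), which was -0.25 without dog 33. For the other 4 genes it lay between -0.33 ± 0.43, in RARRES2, and -0.04 ± 0.17, in ICAM1. None of the 6 passed the adjusted threshold, nor did any gene (0%), and 1 of 6 passed at an unadjusted p under 0.05, against 7.13% of all genes. In the same fit 9 of 9 proliferation genes were higher in static samples, 6 of them at an unadjusted p under 0.05. Higher in static samples were also 6 of 12 fibroblast markers but only 3 of 12 endothelial, 2 of 11 T-cell, 1 of 8 smooth muscle and 1 of 6 B-cell markers, with 0, 1, 1, 0 and 0 at an unadjusted p under 0.05. Among macrophage markers 7 of 10 were higher in static samples, and among dendritic cell markers 4 of 6. In both lists 0 passed at an unadjusted p under 0.05. Of granulocyte markers 1 of 7 was higher in static samples, with 1 at that level. Over all genes, 47.2% were higher in static samples. Their part in the levels of the 6 genes was not tested.

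Within aspirates the IGHV groups lay further apart, and this held across the array as well. At an unadjusted p under 0.05, 14.1% of all genes passed in aspirates and 1.82% in DLBCL samples. CCL21 ran over 7.55, 7.77 and 9.84 in 7 static aspirates, against 7.96, 8.89 and 10.90 in 11 ongoing ones. All static aspirates but that of dog 40 lay at or below 8.00, near the lowest ongoing aspirate. The difference was -1.19 ± 0.43 (limma, adjusted p = 0.200). RARRES2, the chemerin gene, ran over 7.14, 10.03 and 11.17 in static aspirates and 9.08, 11.08 and 12.52 in ongoing ones, a difference of -1.52 ± 0.58 (limma, adjusted p = 0.226). Static aspirates reached lower and ongoing ones higher, with a shared middle. CCL19 differed by -0.99 ± 0.50 (limma, adjusted p = 0.385). The others lay closer, with -0.47 ± 0.43 for VCAM1, -0.39 ± 0.38 for SERPINE2 and -0.02 ± 0.20 for ICAM1. Without dogs 12 and 42 the differences were -0.95 for CCL21, -1.40 for RARRES2 and -0.88 for CCL19. Without dog 33 alone they were -1.02 for CCL21, -1.37 for RARRES2 and -0.64 for CCL19 (limma, adjusted p = 0.240, 0.284 and 0.338).

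In DLBCL samples the same contrast was close to 0. CCL21 ran over 7.28, 7.93 and 8.85 in 18 static samples and 7.61, 8.17 and 8.83 in 12 ongoing ones, with a difference of -0.14 ± 0.15. It was -0.01 ± 0.16 for CCL19 and 0.17 ± 0.57 for RARRES2. The difference between the 2 specimens was tested as an interaction, the static minus ongoing difference in aspirates minus that in lymph node samples. It was -1.01 ± 0.40 for CCL21 (limma, unadjusted p = 0.0141, adjusted p = 0.447), -0.94 ± 0.46 for CCL19 (adjusted p = 0.546) and -1.84 ± 0.88 for RARRES2 (adjusted p = 0.539). None of the 6 passed, against 2 genes in all (0.0132%), ATF7IP2 and CLK3. At an unadjusted p under 0.05, 3 of 6 passed, CCL19, CCL21 and RARRES2, against 9.1% of all genes. Without dog 33 the interaction was -0.59 for CCL19, -0.84 for CCL21 and -1.69 for RARRES2, with unadjusted p at 0.0964, 0.0300 and 0.0623 in limma.

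**Figure D2:**
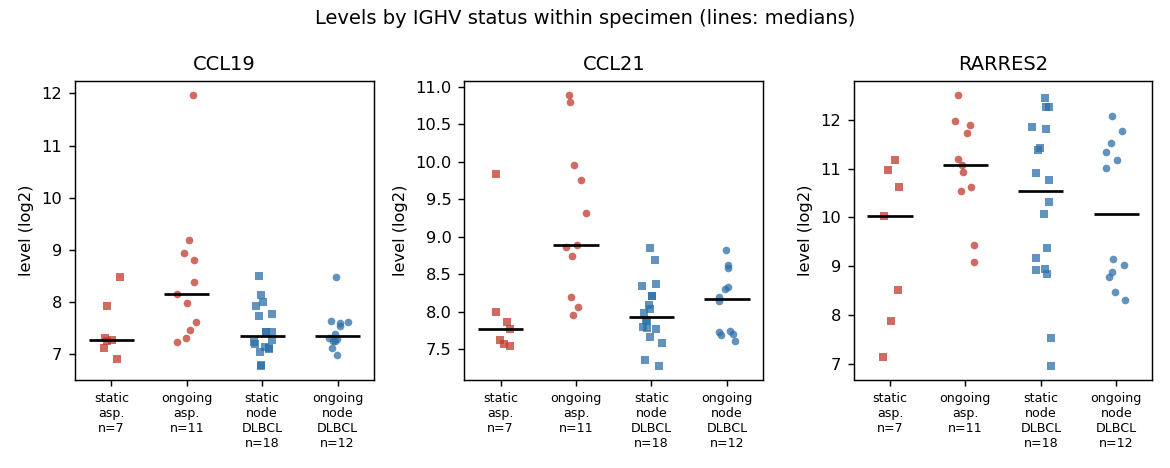
Level (log2) of CCL19, CCL21 and RARRES2 by IGHV status within aspirates (7 static, 11 ongoing) and lymph node DLBCL samples (18 static, 12 ongoing); points are dogs and lines medians. In aspirates the median of CCL21 is 7.77 in static and 8.89 in ongoing dogs, and in DLBCL samples it is 7.93 and 8.17.

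**Figure D3:**
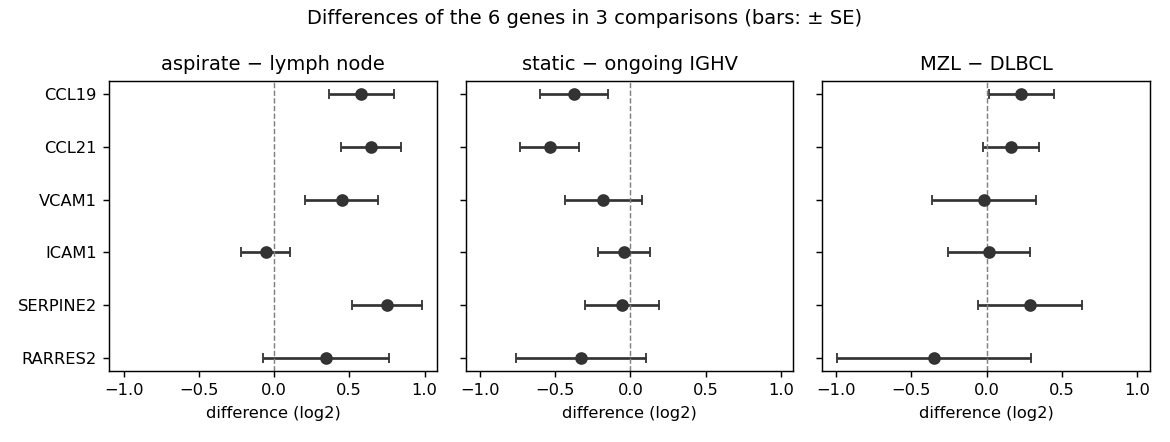
Difference (log2) with its SE (bars) for the 6 genes in 3 comparisons: aspirate minus lymph node, static minus ongoing IGHV and MZL minus DLBCL. Between specimens 5 of 6 genes lie above 0, and by IGHV status all 6 lie below 0, none past an adjusted p of 0.05. Over all genes 46.9% lie above 0 between specimens and 47.2% by IGHV status. In DLBCL samples alone (not shown) VCAM1, ICAM1, SERPINE2 and RARRES2 lie above 0 by IGHV status.

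Outcome was tested per gene with the Cox score statistic within specimen strata, with the indicator 1 read as an event and the hazard ratio given per log2 unit, so that a ratio above 1 means earlier events at higher levels. For PFS the ratio of CCL19 was 1.33 (95% interval 0.927 to 1.89), of CCL21 1.13 (0.762 to 1.68), and of RARRES2 1.18 (0.970 to 1.43). It was 0.995 for VCAM1, 0.952 for ICAM1 and 1.13 for SERPINE2. For OS it was 1.34 (0.926 to 1.93) for CCL19, 1.33 (0.907 to 1.94) for SERPINE2 and 1.15 (0.941 to 1.41) for RARRES2. VCAM1, ICAM1 and CCL21 had OS ratios of 1.04, 0.998 and 1.09. All 12 adjusted p-values of the score test were 1.00 after rounding. None of the 6 passed for PFS, nor did any gene (0%), and none passed for OS, where 1 gene did (0.00662%), DDX43. At an unadjusted p under 0.05 the counts were 0 of 6 for both outcomes, against 2.83% of all genes for PFS and 3.99% for OS.

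Within lymph node samples CCL19 and RARRES2 were set against early progression. They are the 2 members with the smallest unadjusted score p for PFS there. For CCL19, in the 18 dogs with a PFS event by the Kaplan-Meier median of 202 the level ran over 7.05, 7.43 and 9.64, against 6.78, 7.29 and 7.60 in the 17 event-free past that time. Of the 18, 8 lay above every event-free dog, while the medians were close. That count is a description, since CCL19 was picked by its score p in these same dogs. Among aspirates 1 of 10 dogs with an event by the median lay above every event-free dog. In the 36 lymph node dogs with a PFS time the hazard ratio was 2.07 (95% interval 1.06 to 4.04), with an unadjusted score p of 0.0297 and an adjusted p of 0.848, and 5.66% of all genes had an unadjusted p under 0.05 there. Without dog 43 it was 2.80 (0.940 to 8.34), and in the 30 DLBCL dogs 2.63 (0.870 to 7.92). In aspirates it was 1.15 (0.738 to 1.80), and the ratio between specimens had a likelihood ratio p of 0.167 (adjusted p = 0.917). RARRES2 in lymph node samples ran over 7.53, 10.96 and 12.46 in dogs with a PFS event by the median and over 6.95, 9.03 and 12.48 in event-free dogs, with a hazard ratio of 1.25 (0.980 to 1.59). Its medians lay apart but the ranges were almost the same.

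The 6 genes were then set against each other across dogs, within 32 DLBCL samples and within 19 aspirates apart, so that the specimen could not give the relation. Each of 30 correlations had a two-sided permutation test with 100000 permutations, whose smallest possible p is 1e-05, with Benjamini-Hochberg adjustment over the 30. CCL19 and CCL21 moved together in both. In DLBCL samples Pearson's r was 0.78 and Spearman's rho 0.80, with adjusted permutation p = 1e-04 for r and 7.5e-05 for rho (unadjusted 1e-05 for both), and r was 0.72 without the 2 dogs farthest from the CCL19 median. In aspirates r was 0.85 and rho 0.85, with the same permutation p-values, and r was 0.88 without the 2 farthest dogs. Among 15114 other genes none had a higher r with CCL21 than CCL19 in DLBCL samples, and 1 did in aspirates.

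A second group held VCAM1, ICAM1 and SERPINE2. In DLBCL samples VCAM1 and SERPINE2 correlated at r = 0.76 and rho = 0.75 (adjusted permutation p = 1e-04 and 7.5e-05), and ICAM1 and SERPINE2 at r = 0.64 and rho = 0.76 (adjusted permutation p = 0.00048 and 7.5e-05). VCAM1 and ICAM1 correlated at r = 0.60 and rho = 0.60 (adjusted permutation p = 0.0014 and 0.0017). Without the 2 farthest dogs the 3 values of r were 0.69, 0.62 and 0.59. Across the groups, CCL19 and ICAM1 correlated at r = 0.53 and rho = 0.51 (adjusted permutation p = 0.00769 and 0.00903), and r was 0.49 without the 2 farthest dogs. CCL19 and VCAM1 correlated at r = 0.41 (adjusted permutation p = 0.0323) but rho was 0.27 (0.198) and r was 0.18 without the 2 farthest dogs, so that relation rested on those samples. CCL19 and SERPINE2 passed by rho, at 0.43 (adjusted permutation p = 0.0297), but not by r, at 0.35 (0.0783). CCL21 passed with neither VCAM1, ICAM1 nor SERPINE2, at r from 0.25 to 0.26.

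RARRES2 stood apart in DLBCL samples. Its r with the other 5 genes ran between -0.13 and 0.26, and none of these passed. In aspirates it correlated with CCL19 at r = 0.60 and rho = 0.65 (adjusted permutation p = 0.0197 and 0.00927), with CCL21 at r = 0.59 and rho = 0.62 (0.0197 and 0.0151) and with VCAM1 at r = 0.63 and rho = 0.72 (0.0122 and 0.00227). With SERPINE2 it was r = 0.54 and rho = 0.55 (adjusted permutation p = 0.0321 and 0.0325), and 0.40 without the 2 farthest dogs. In all, 11 of 15 pairs passed by r in aspirates and 6 of 15 in DLBCL samples, with a median r of 0.59 in aspirates and 0.26 in DLBCL samples. The difference between specimens was not tested.

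**Figure D4:**
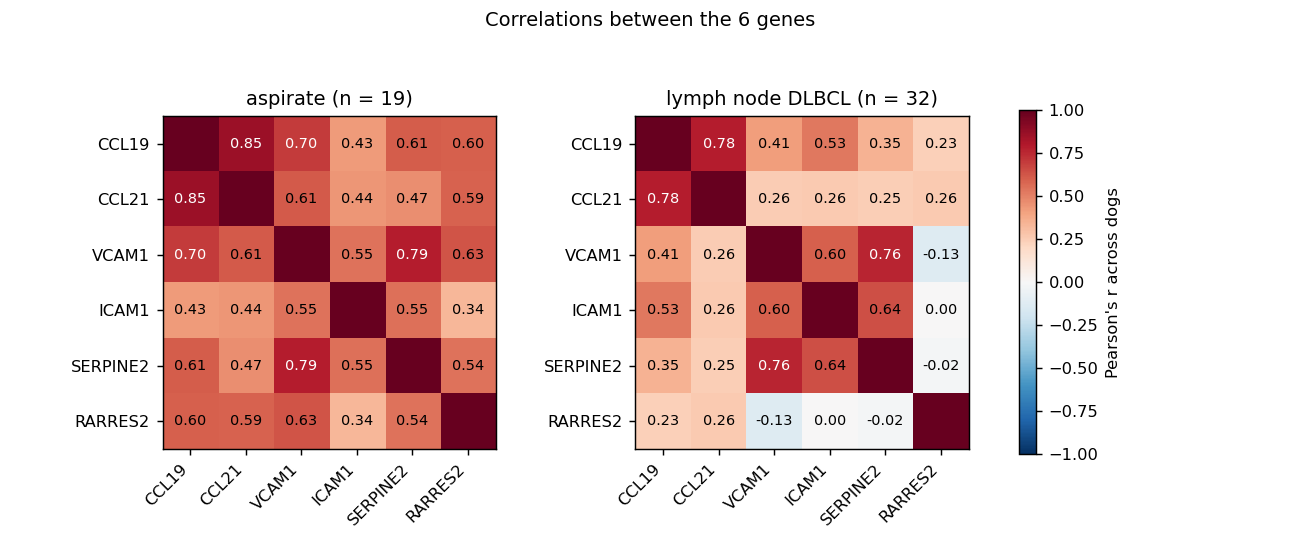
Pearson's r across dogs for each pair of the 6 genes in aspirates (n = 19) and lymph node DLBCL samples (n = 32); colour and number both give r. CCL19 with CCL21, at 0.85 and 0.78, and VCAM1 with SERPINE2, at 0.79 and 0.76, are high in both. In DLBCL samples RARRES2 lies between -0.13 and 0.00 with VCAM1, ICAM1 and SERPINE2, and in aspirates between 0.34 and 0.63.

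The genes whose levels were most like each member over the 32 DLBCL samples are given as a description, since they were picked by that value. For CCL19 they were C1R, a complement protease (r = 0.87), the collagen genes COL1A2 (0.87), COL1A1 (0.84) and COL3A1 (0.80), and IGFBP4 (0.82). In aspirates the same genes correlated with CCL19 at 0.86, 0.83, 0.73, 0.50 and 0.88. For CCL21 they were CCL19, IGFBP6 (0.76), the metalloproteinase inhibitor TIMP1 (0.75), the histone gene H2AC14 (0.74) and COL1A2 (0.73). In aspirates IGFBP6, TIMP1, H2AC14 and COL1A2 stood at 0.56, 0.44, 0.03 and 0.70 with CCL21.

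VCAM1 ran with the mesenchymal cadherin CDH11 (r = 0.89 in DLBCL samples, 0.94 in aspirates), with MYH11 (0.84), the smooth muscle myosin, with CALD1 (0.83), an actin-binding protein, and with PLS3 (0.83) and PRSS23 (0.83). SERPINE2 ran with CALD1 (0.90), PDLIM3 (0.89), PI3 (0.85), ACTA2 (0.85), the smooth muscle actin, and LCN2 (0.83). Both lists held contractile genes. In aspirates the other 4 genes of VCAM1 stood between 0.76, for PLS3, and 0.93, for PRSS23, and the 5 of SERPINE2 between 0.50, for LCN2, and 0.82, for CALD1 and PDLIM3. ICAM1 ran with CLIC2 (0.83), MYO7A (0.83), PTPRM (0.82), a receptor phosphatase, MITF (0.79), a transcription factor of melanocytes and mast cells, and TMEM176A (0.79). RARRES2 ran with ARMC12 (0.74), PRDX5 (0.73), a peroxiredoxin, LY96 (0.72), the MD-2 subunit that joins TLR4, RAMAC (0.69) and NOD1 (0.69), an intracellular sensor of bacterial peptides. In aspirates the 5 genes of ICAM1 stood between 0.57, for MITF, and 0.70, for MYO7A, and the 5 of RARRES2 between 0.41, for RAMAC, and 0.72, for PRDX5. Over all genes the median r with a member in DLBCL samples lay between 0.00 for VCAM1 and 0.12 for CCL19.

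The members were set against the mean level of 13 lists of cell type and proliferation markers. They were also set against the RNA 3′ minus 5′ difference and each array's mean correlation with the other arrays. All 180 correlations were adjusted together. For these quality measures only ICAM1 passed, with the RNA difference in DLBCL samples by rho, at 0.51 (adjusted permutation p = 0.0291). Its r was 0.27 (0.326). The part of RNA quality in ICAM1 levels was not tested. In DLBCL samples the members other than RARRES2 passed by r with the fibroblast and smooth muscle lists, though not all of them by rho. The fibroblast list, which holds COL1A1, COL1A2 and COL3A1, correlated with CCL19 at r = 0.86 and rho = 0.87 (adjusted permutation p = 0.00045 and 0.0006) and with CCL21 at r = 0.74 and rho = 0.73 (0.00045 and 0.0006). The smooth muscle list, which holds MYH11 and ACTA2, correlated with VCAM1 at r = 0.80 and rho = 0.78 (adjusted permutation p = 0.00045 and 0.00072), with SERPINE2 at r = 0.79 and rho = 0.87 (0.00045 and 0.0006) and with ICAM1 at r = 0.74 and rho = 0.69 (0.00072 and 0.0012). Each of these 5 values of r was 0.68 or higher without the 2 farthest dogs. For lists, these are the 2 dogs farthest from the median of the list, not of the member. The lists were not divided cleanly between the genes. CCL19 also passed by r with the smooth muscle list, at 0.62 (adjusted permutation p = 0.00495), and CCL21 at 0.46 (0.0442). For CCL21 rho was 0.30 (adjusted permutation p = 0.272), and r was 0.31 without the 2 farthest dogs. The fibroblast list passed by r with VCAM1, at 0.50 (adjusted permutation p = 0.0272), ICAM1, at 0.52 (0.0204), and SERPINE2, at 0.47 (0.04). For VCAM1 rho was 0.30 (adjusted permutation p = 0.266), and r was 0.25 without the 2 farthest dogs. For SERPINE2 rho was 0.47 (adjusted permutation p = 0.0564), and r was 0.37 without them. The lymphatic endothelial list passed by r with SERPINE2 alone, and with a negative sign, at -0.48 (adjusted permutation p = 0.0326). Its rho with SERPINE2 was -0.44 (adjusted permutation p = 0.064).

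The B-cell list went the other way. In DLBCL samples it correlated with ICAM1 at r = -0.57 and rho = -0.55 (adjusted permutation p = 0.00886 and 0.0201) and with CCL19 at r = -0.52 and rho = -0.55 (0.0204 and 0.0201). The endothelial list correlated with CCL19 at r = 0.61 and with ICAM1 at r = 0.57 (adjusted permutation p = 0.00489 and 0.00886). It correlated with SERPINE2 at r = 0.53 and with CCL21 at r = 0.50 (adjusted permutation p = 0.0168 and 0.0272). The erythroid list correlated with CCL19 at r = 0.59 and with CCL21 at r = 0.47 (adjusted permutation p = 0.00671 and 0.0431). Macrophage markers passed with ICAM1 by r, at 0.48 (adjusted permutation p = 0.0389), but rho was 0.36 (0.173). Adipocyte markers passed with CCL19 by r, at 0.57 (adjusted permutation p = 0.0143), but rho was 0.45 (0.0609). With SERPINE2 they passed by rho, at 0.54 (adjusted permutation p = 0.0201), but r was 0.45 (0.0526). RARRES2 passed with none of the 13 lists in either specimen, its highest r being 0.22, with adipocyte markers, in DLBCL samples and 0.57, with macrophage markers, in aspirates.

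In aspirates CCL19 correlated with the fibroblast list at r = 0.77 and rho = 0.67 (adjusted permutation p = 0.0048 and 0.0257) and with the macrophage list at r = 0.74 and rho = 0.65 (0.0054 and 0.0287). Without the 2 farthest dogs these values of r were 0.49 and 0.57. Its r with the endothelial list was 0.77, but rho was 0.54 (adjusted permutation p = 0.0898) and r was 0.36 without the 2 farthest dogs. For CCL21, r with the fibroblast list was 0.62, rho was 0.41 (adjusted permutation p = 0.25) and r was 0.25 without the 2 farthest dogs, so those relations rested on them. The r of CCL21 with the endothelial list was 0.68, but rho was 0.42 (adjusted permutation p = 0.242). CCL21 also passed by r with the macrophage list, at 0.67 (adjusted permutation p = 0.0178), though rho was 0.59 (0.0595). Without the 2 farthest dogs that r was 0.50. CCL19 passed by r with the smooth muscle list, at 0.75 (adjusted permutation p = 0.0204), though rho was 0.55 (0.081). Without the 2 farthest dogs that r was 0.48. VCAM1 correlated with the smooth muscle list at r = 0.68 and rho = 0.69 (adjusted permutation p = 0.0165 and 0.0227), and r was 0.48 without the 2 farthest dogs. SERPINE2 did so at r = 0.64 and rho = 0.72 (adjusted permutation p = 0.0204 and 0.0142), and it also passed by r, though not by rho, with the macrophage list, at 0.59, and with the B-cell list, at 0.60. ICAM1 passed with none of the lists in aspirates.

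**Figure D5:**
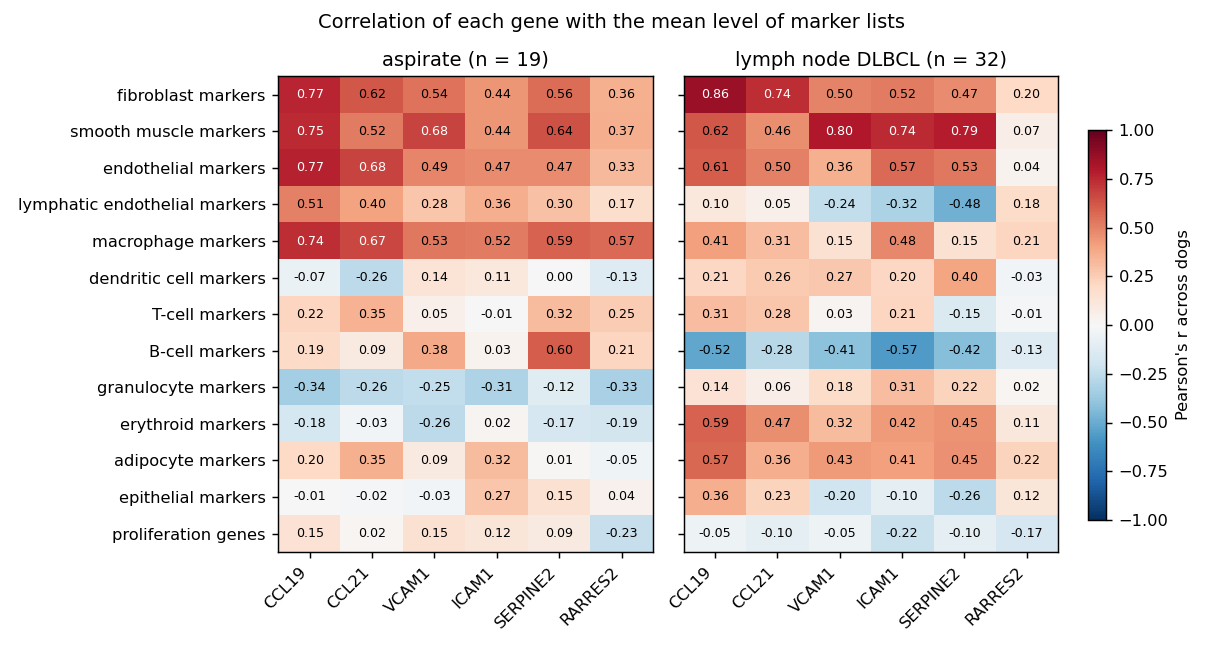
Pearson's r across dogs of each of the 6 genes (columns) with the mean level of 13 marker lists (rows), in aspirates (n = 19) and lymph node DLBCL samples (n = 32). In DLBCL samples the fibroblast list is highest for CCL19 and CCL21, at 0.86 and 0.74, and the smooth muscle list for VCAM1, ICAM1 and SERPINE2, at 0.80, 0.74 and 0.79.

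The pathway genes around the members gave 58 measured genes in 7 lists: receptors and decoys, integrin partners, other homing molecules, lymphotoxin and TNF signalling, other homeostatic chemokines, reticular stroma, and protease partners. None of the 58 passed the adjusted threshold in any of the 5 comparisons, and 8, 5, 0, 6 and 6 passed at an unadjusted p under 0.05 for specimen, IGHV, diagnosis, PFS and OS. Over all genes the shares at that level were 11.8%, 7.13%, 1.16%, 2.83% and 3.99% in the same order. Between specimens the 4 smallest p-values belonged to genes with higher means in aspirates: PLG, plasminogen, by 0.17 ± 0.05, CXCL14, a chemokine, by 0.39 ± 0.12, DES, desmin, by 0.12 ± 0.04, and ENG, endoglin, by 0.16 ± 0.05 (limma, adjusted p from 0.131 to 0.178). By IGHV status they were LTB and LTA, which encode the lymphotoxin subunits that in mice drive CCL19 and CCL21 in stroma, ICAM2 and PLAU. LTB averaged 12.14 in static and 12.79 in ongoing samples, a stratified difference of -0.56 ± 0.21, and LTA 8.00 in static and 8.26 in ongoing samples, -0.28 ± 0.12. ICAM2 differed by -0.20 ± 0.09 and PLAU, urokinase, by 0.18 ± 0.08 (limma, adjusted p from 0.670 to 0.678 for the 4).

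Between MZL and DLBCL the 4 were TNFRSF1B, at -0.11 ± 0.07, LTB, at 0.50 ± 0.32, CCR7, the receptor of both chemokines, at -0.50 ± 0.31, and BST1, a stromal surface enzyme, at -0.21 ± 0.16 (limma, adjusted p = 1.00 each). For PFS they were TNFSF11, the RANK ligand, with a hazard ratio of 2.07, FN1, fibronectin, with 1.38, PLAU with 2.69 and PLAT with 1.81. For OS they were FN1 with 1.44, PLAU with 3.30, SELP, P-selectin, with 1.40 and LTA with 0.432 (score test, adjusted p = 1.00 each).

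Within DLBCL samples the pathway lists followed the members unevenly. The 13 reticular and follicular stroma genes had a median r of 0.37 with CCL19, 0.33 with CCL21, 0.34 with VCAM1, 0.34 with ICAM1 and 0.39 with SERPINE2, and 0.09 with RARRES2. Chosen after their values were seen, the highest among them was LAMA4, a laminin chain, for CCL19 (0.70) and VCAM1 (0.77) and FN1 for SERPINE2 (0.81). The 7 genes of other homeostatic chemokines and their receptors reached as high, with a median r of 0.38 with CCL19, 0.44 with ICAM1 and 0.33 with VCAM1. Their median r was 0.25 with SERPINE2, 0.18 with CCL21 and 0.09 with RARRES2. The 7 integrin genes, whose products bind VCAM1 and ICAM1, had a median r of 0.08 with VCAM1 and 0.13 with ICAM1. The 14 lymphotoxin and TNF genes had a median r of 0.10 with CCL19 and 0.09 with CCL21.

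The check probe sets followed the ones used. In DLBCL samples their r with the used probe set lay between 0.82, in RARRES2, and 0.97, in VCAM1, and CCL21 had no second probe set. In aspirates it lay between 0.51, in ICAM1, and 0.98, in CCL19. The second ICAM1 probe set varied less in aspirates, with an SD of 0.23 against 0.43 for the one used. The second RARRES2 probe set varied less in both specimens, with an SD of 0.63 against 1.44 in aspirates and 0.52 against 1.54 in DLBCL samples.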

How the data were processed

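Total RNA was extracted with Trizol, labelled with biotin and hybridised to Affymetrix canine arrays, per the labels' protocols. The deposited values are log2 expression levels of 43035 probe sets, made by the authors with Affymetrix Expression Console and RMA (background correction, normalization and probe summary), per the submitters' processing notes. They ran between 2.82 and 15.11, with 0 missing. Symbols came from the platform's annotation: 29254 probe sets had 1 symbol, giving 15115 genes, 8254 of them with over 1 probe set.

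Groups were tested with limma 3.58.1 (lmFit, eBayes) in R 4.3.3 and outcome with a Cox score test (Breslow ties; hazard ratios from survival 3.8.3), all two-sided, with Benjamini-Hochberg adjustment over all genes at 0.05. Each sample is a different dog, so p-values measure spread between dogs. No batch or scan date was used. No file is repeated: the closest arrays correlated at 0.990. The tests were checked on simulated data.

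The 6 genes and all lists were chosen with earlier results of these data known. The text names the 6 genes, the 5 genes most correlated with each in DLBCL samples (no LOC symbols), and the 4 pathway genes with the smallest p where none passed. The number of arrays limits the precision. Alternatives changed the probe set rule, normalization, dim-gene filter, test, reference, strata and samples.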

Additional observations from a re-analysis of the deposited data

Results flagged for a closer look

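In 42 checks of small groups for a sample far from the others, 6 values stood out; chance alone marks about 1 in 20 such groups, and several of these share a dog. CCL19 was 9.64 in MZL dog 43, with the next MZL dog at 7.67, and the same value stood out among the 4 MZL dogs with ongoing IGHV status, where the next was 7.43. CCL21 was 9.60 in that dog among the 4, with the next at 8.01. CCL21 was 9.84 in dog 40 among the 7 static aspirates, with the next at 8.00. CCL19 was 11.98 in dog 33 among the 10 aspirates with a PFS event by the median time and again among the 10 with an OS event by the median time, with the next at 8.94 in both.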

How the results depend on the processing

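None of the 6 genes passed an adjusted p of 0.05 under any alternative: the lowest adjusted p was 0.115 between specimens, 0.200 by IGHV status, 0.989 between MZL and DLBCL, 0.848 for PFS, 0.856 for OS and 0.482 for the interaction, over 60, 72, 84, 78, 78 and 12 values. Between specimens all 60 kept their direction. The cause of the changes that follow was not tested. Genes called between specimens, 18 in the report, were 58 with the mean of probe sets, 137 of all probe sets, 37 with quantile normalization repeated, 41 with arrays centred on the median, 10 without dogs 12 and 42, 0 by rank-sum test, 6 against DLBCL alone and 5 with IGHV as a covariate. By IGHV status they were 6 in aspirates alone and 1 there without dogs 12 and 42 or without dog 33, and for the interaction 1 in each of these settings, against 2 in the report. For PFS they were 1 with the mean of probe sets, with every probe set and in lymph node alone. For OS they were 2 with the mean, with every probe set and with quantile normalization, 3 in lymph node alone, and 0 without dim genes, without strata, in aspirates, with IGHV as a stratum and by rank.

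Signs turned for small differences. By IGHV status SERPINE2 was 0.0447 with the mean of probe sets and 0.181 and 0.00775 in its other probe sets, and ICAM1 was 0.0205 in its other probe set, 0.00910 as a scaled rank-sum difference and, in aspirates, 0.0320 without dogs 12 and 42 and 0.0217 without dog 33. In DLBCL alone VCAM1 was 0.0664, ICAM1 0.0268, SERPINE2 0.0267 and RARRES2 0.166. Leaving out each MZL dog gave 0 to 0 genes called and ranges of -0.10 to 0.33 for CCL19, -0.0721 to 0.250 for CCL21, -0.23 to 0.14 for VCAM1, -0.18 to 0.13 for ICAM1, 0.08 to 0.50 for SERPINE2 and -0.79 to -0.04 for RARRES2. Hazard ratios for PFS crossed 1 for VCAM1 at 1.012 with the mean of probe sets, 1.025 in the other probe set and 1.060 in aspirates, for CCL21 at 0.979 without strata, for ICAM1 at 1.158 in aspirates and 1.002 by rank, and for SERPINE2 at 0.9991 in aspirates. For OS, ICAM1 was 1.001 with quantile normalization, 1.003 with median centring, 1.098 without dogs 12 and 42, 1.050 in lymph node alone and 1.002 by rank. CCL21 was 0.954 without strata and 0.916 in lymph node without dog 43. VCAM1 was 0.981 without strata, 0.942 in lymph node alone, 0.930 with IGHV as a stratum, 0.871 in lymph node without dog 43 and 0.957 in DLBCL alone.

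Among DLBCL correlations, CCL19 with SERPINE2 passed at r = 0.411 with the mean of probe sets and 0.448 in all lymph node samples, where CCL21 passed with VCAM1 at 0.388 and with ICAM1 at 0.369. SERPINE2 with RARRES2 was 0.0454 with the mean of probe sets and 0.152 in all lymph node samples. No paired analysis was possible because each dog gave 1 sample and replicate numbers follow accession order. The settings without dog 33 or 43, those without dogs 12 and 42 in aspirates alone, DLBCL alone for outcome, and the interaction alternatives were chosen after seeing the data. The number of arrays, 7 for MZL above all, limits the precision.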
